A study of Mus musculus with 18 samples.

Results

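The change between 5 h and 12 h of tunicamycin was measured in B16 F10.9-4 cells, a mouse melanoma cell line. Its members are the 3 arrays labelled as tunicamycin for 5 h and the 3 labelled as tunicamycin for 12 h, 6 of the 18 arrays of the series. They were compared over 19938 genes, each read by its brightest probe set with a single symbol. The other 12 arrays were 3 each of vehicle, doxycycline alone, doxycycline with 5 h of tunicamycin and doxycycline with 12 h of tunicamycin.

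The study made 3 independent experiments, each with 1 array of all 6 groups. The main fit did not pair arrays by experiment. Its p-values measure the spread among the 3 arrays within a group, pooled over all 6 groups. Doxycycline was given before tunicamycin to induce LIP, the short isoform of the transcription factor C/EBPβ that lacks most of its activating region. The 6 arrays compared here had no doxycycline, so LIP was not induced by it in them, and with 1 agent inducing LIP, doxycycline and LIP cannot be told apart in the others. The labels name no dose of tunicamycin and 1 cell line only. Vehicle arrays stand for 0 h only, so hours in culture and hours of tunicamycin cannot be told apart.

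Tunicamycin blocks the first enzyme of N-linked glycosylation, and unglycosylated proteins misfold in the endoplasmic reticulum (ER). Cells answer through the sensors PERK, IRE1 and ATF6: PERK slows translation and raises the factors ATF4 and CHOP, while XBP1, made active by IRE1, and cleaved ATF6 raise chaperones, folding enzymes and the degradation machinery. This unfolded protein response (UPR) first favours adaptation, and its CHOP branch is known for its link to cell death when the stress persists.

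Values are log2 intensities as the authors deposited them, and a difference of 1 is a 2-fold change. A gene was called when its adjusted p in limma, over all genes, was under 0.05. Between 5 and 12 h, 2264 genes rose (11.4% of those tested) and 2719 fell (13.6%). The rises were larger: 147 genes rose at least 2-fold (0.737%), against 23 that fell as far (0.115%). The median gene differed by -0.03. The share of higher calls moved with the scaling: 2606 rose and 1868 fell when array medians over the genes tested were set equal, and 1921 rose and 3212 fell when medians over all probe sets were set equal. All 3 arrays at 12 h lay above all 3 at 5 h for 2966 genes (14.9%) and below them for 3799 (19.1%).

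Array medians lay between 6.96 and 7.04, and arrays of 1 group correlated at 0.997 to 0.999 over genes. Array 2 at 5 h and array 3 at 12 h had the highest scores on a component read from 1207 chemosensory receptor genes, which are silent in most cells. Without both arrays, 1794 genes rose and 2207 fell, and without experiment 1 or experiment 3 the count of falls was 1632 or 1615. All 7 melanocytic marker genes measured were above the 95th percentile of the receptor genes (6.07), with Dct at 13.7 and Pmel at 12.8 in the vehicle mean. Of markers of other cells, 2 of 5 leukocyte, 3 of 6 epithelial, 2 of 5 endothelial and 3 of 6 fibroblast genes passed that level. At 5 h, Ptprc, the pan-leukocyte marker, was at 5.24 and Epcam, an epithelial marker, at 5.39. Other markers were brighter at 5 h, with Cd68 at 8.12, the fibroblast gene Col1a2 at 8.11 and the epithelial gene Krt8 at 7.05. The melanocytic gene Tyr was at 6.82 there. Among these markers the macrophage gene Cd68 fell by 0.47 and the endothelial gene Vwf by 0.15 between 5 and 12 h. Their part in the results was not tested.

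Genes were sorted by both steps, 5 h minus vehicle and 12 h minus 5 h. In the first step 813 genes were higher (4.08%) and 985 lower (4.94%). A transient rise was a call of at least 0.4 at 5 h that was followed by a call in the opposite direction, with the 12 h mean back at least halfway to vehicle. A late rise was a call of at least 0.4 between 5 and 12 h in a gene that was not called at 5 h and lay within 0.2 of vehicle there. A continued rise was called by at least 0.4 in both steps. A held rise was called by at least 0.4 at 5 h, not called afterwards and within 0.2 of its 5 h level at 12 h. The falls mirror these. Late rises were the most frequent with 624 genes (3.13%), followed by 465 late falls (2.33%), 81 transient rises (0.406%), 70 held falls (0.351%), 42 held rises (0.211%), 34 transient falls (0.171%), 30 continued rises (0.15%) and 12 continued falls (0.0602%). These classes were read from the values themselves, so their counts are a description. The steps share the 5 h arrays, and a deviation of those arrays enters both with opposite signs. The first step was the less stable: without experiment 1 it gave 305 higher and 350 lower genes, and without experiment 3, 223 and 196. Without experiment 2, vehicle array 1, vehicle array 3 or 5 h array 2, the lower genes numbered 437, 610, 567 and 569. With array medians over the genes tested set equal, the classes held 53 transient rises and 59 transient falls, 25 held rises, 113 held falls and 19 continued falls.

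**Figure D1:**
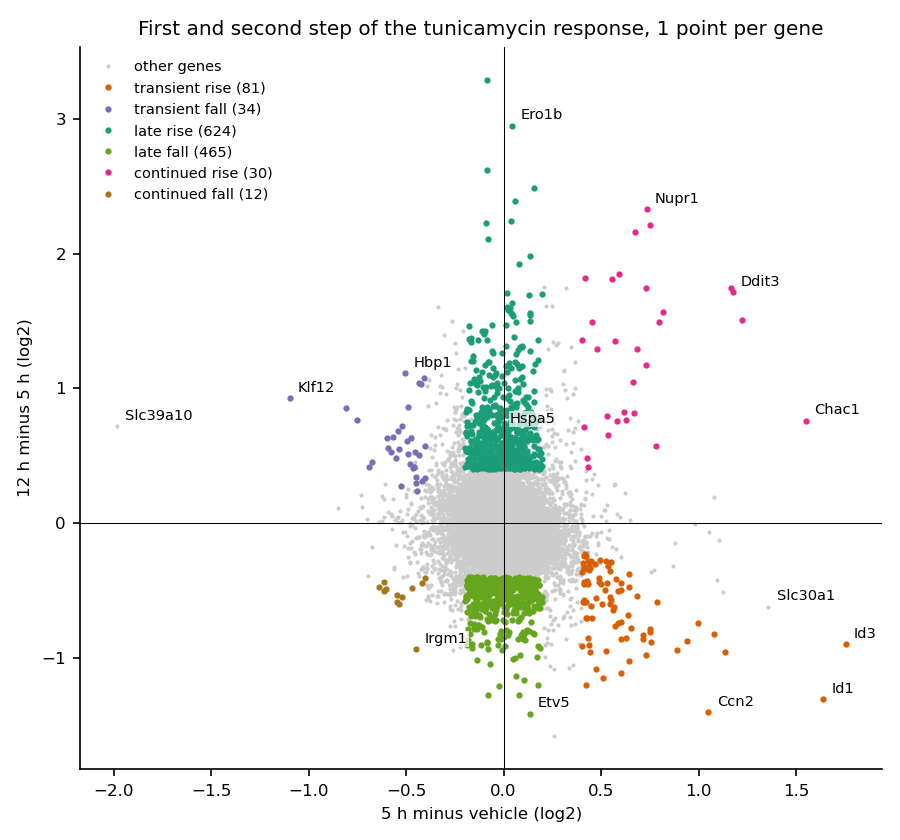
Each point is 1 of 19938 genes, with the 5 h minus vehicle difference on the x axis and the 12 h minus 5 h difference on the y axis, both log2. Late rises reach 3.29 above the centre, while Id1, Id3 and Ccn2 lie at the lower right, above vehicle at 5 h and falling afterwards.

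The ER oxidase Ero1b, which passes oxidizing power to protein disulfide isomerase, had the largest late rise among genes with an established name. It measured 7.32, 7.49 and 7.35 on the vehicle arrays of experiments 1, 2 and 3, then 7.38, 7.30 and 7.62 at 5 h and 10.28, 10.36 and 10.50 at 12 h. Vehicle and 5 h overlapped, and every 12 h array stood far above both. The step was 2.95 ± 0.09 (SE), or 7.72-fold, with an adjusted p of 1.3e-13 in limma. A clone-named gene, 1810010H24Rik, had a larger step of 3.29 and lies outside the naming rule, so it was chosen after its values were seen.

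Nucb2, a calcium-binding protein of the ER and Golgi, measured 8.39, 8.09 and 8.56 at 5 h and 10.96 on all 3 arrays at 12 h, a rise of 2.62 ± 0.09. Sec24d, a cargo-binding subunit of the COPII vesicle coat, went from 8.97, 8.74 and 8.87 to 10.91, 10.97 and 11.03. Its rise was 2.11 ± 0.06 with an adjusted p of 7.5e-14. Both genes lay at the vehicle level at 5 h, with differences of -0.08 each that were not called.

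Hspa5, which encodes BiP, the main ER chaperone and the brake on the sensors, was already among the brightest genes. It measured 12.90, 12.89 and 12.92 with vehicle, 12.89, 12.86 and 12.94 at 5 h and 13.68, 13.53 and 13.57 at 12 h. The 5 h arrays could not be told from vehicle, and all 12 h arrays were higher, by 0.70 ± 0.05 (adjusted p = 3.4e-09). Of 23 ER chaperones and co-chaperones measured, 21 rose between 5 and 12 h and 0 fell at adjusted p under 0.05, with a median of 0.70. Only Dnajb9 and Wfs1 of these had been called higher in the first step. Fkbp11 rose by 1.63 ± 0.08 and the nucleotide exchange factor Hyou1 by 1.47.

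Degradation and export followed the same course. Sel1l and Syvn1, the scaffold and the ubiquitin ligase of the HRD1 complex that returns misfolded proteins to the cytosol, both rose late, Syvn1 by 1.55 ± 0.06. Sel1l read 10.96, 10.93 and 11.02 at 5 h and 12.50, 12.44 and 12.46 at 12 h, with no overlap. Of 25 genes of ER-associated degradation, 18 rose and 0 fell (median 0.43). Of 19 disulfide isomerases and ERO1 oxidases, 14 rose and 0 fell (median 0.46), among them Creld2 by 1.56 ± 0.06 and Pdia6 by 1.02 ± 0.05. Of 53 genes of the translocon and vesicle coats, 45 rose and 1, Sec24b, fell by 0.15 (median 0.39). The cargo retrieval receptor Kdelr3 rose by 1.42 ± 0.08.

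The pathway that tunicamycin blocks also rose late. Of 37 genes of N-glycosylation and the hexosamine pathway, 24 rose and 0 fell (median 0.30), and 2 fell with quantile normalization repeated. Dpagt1, the enzyme that tunicamycin inhibits, rose by 0.60. Gmppb, which makes the mannose donor, measured 7.64, 7.37 and 7.55 at 5 h and 8.84, 9.09 and 8.78 at 12 h. Pgm3 and Gnpnat1, both in the synthesis of UDP-GlcNAc, rose by 1.12 ± 0.06 and 1.09 ± 0.07. In the first step 1 of the 37 was higher and 1 lower.

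Promoters of late rises were read for the ER stress response element (ERSE), the site bound by NF-Y together with ATF6 or XBP1. Its letters are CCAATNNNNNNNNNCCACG, searched on both strands from 250 bases before to 50 after the start site in the RefSeq windows of GRCm38.p6, which covered 15614 of the genes tested. It occurred in 21 genes (0.134%), in 10 of 507 late rises with a window (1.97%) and in 7 of the 80 late rises of at least 1 (8.75%). Of the 21 genes, 12 rose (57.1%) and 3 fell. The following upstream segments are shown because their genes rose late and carry the element. Capitals mark the match, read on either strand, and all lie before the start site.

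Hspa5 (chr2:34772013-34772055, plus strand): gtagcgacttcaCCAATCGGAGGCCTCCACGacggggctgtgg
Calr (chr8:84847063-84847105, minus strand): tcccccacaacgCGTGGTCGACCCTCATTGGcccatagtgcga
Pdia6 (chr12:17266479-17266521, plus strand): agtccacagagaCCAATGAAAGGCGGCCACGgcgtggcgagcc
Dnajc3 (chr14:118937815-118937857, plus strand): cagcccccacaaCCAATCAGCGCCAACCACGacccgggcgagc
Syvn1 (chr19:6046520-6046562, plus strand): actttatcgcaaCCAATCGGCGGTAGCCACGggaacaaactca
Creld2 (chr15:88819508-88819550, plus strand): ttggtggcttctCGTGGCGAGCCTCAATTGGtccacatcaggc
Ero1b (chr13:12565670-12565712, plus strand): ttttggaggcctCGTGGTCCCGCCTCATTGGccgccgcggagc
Hsp90b1 (chr10:86705525-86705664, minus strand): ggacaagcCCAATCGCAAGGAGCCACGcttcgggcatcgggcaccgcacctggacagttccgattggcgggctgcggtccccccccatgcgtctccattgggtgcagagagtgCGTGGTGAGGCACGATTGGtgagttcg

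The gene for GRP94, Hsp90b1, holds 2 copies in opposite orientation and rose by 0.70, while Calr, the lectin chaperone calreticulin, rose by 0.44 and Dnajc3, the BiP co-chaperone p58IPK, by 1.19. Among genes with the element the step varied: Ero1b with 1 copy rose by 2.95, Canx, the chaperone calnexin, by 0.11, and Derl3, of the degradation pore, differed by -0.06, which was not called. Zfp57, a KRAB zinc finger gene with the element, rose by 1.92 ± 0.09. Calr4 with the element was a transient rise, 0.64 above vehicle at 5 h and lower by 0.37 afterwards. The shorter core TGACGTGG, which contains the CRE core TGACGT, occurred in 17 of 507 late rises (3.35%) against 0.916% of all genes.

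**Figure D2:**
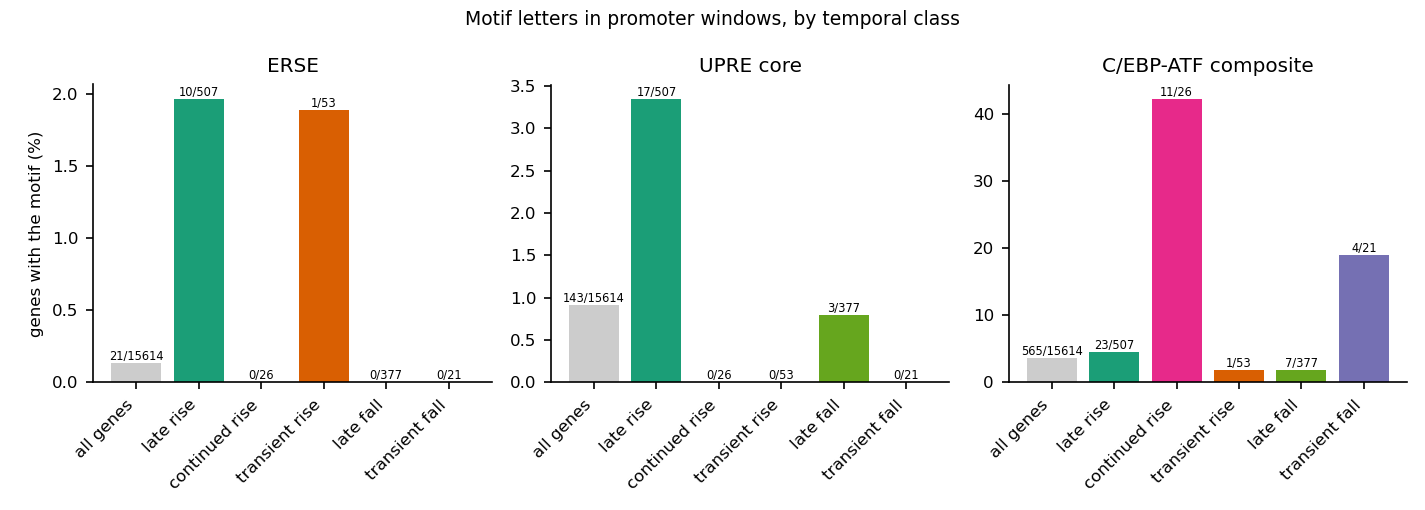
Bars give the percentage of genes with a promoter window that hold each motif, for all genes and for 5 temporal classes, with counts above the bars and a y axis of its own in each panel. The ERSE is found in 1.97% of late rises and the C/EBP-ATF composite in 42.3% of continued rises, against 0.134% and 3.62% of all genes.

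The continued rises were led by targets of ATF4 and CHOP. Ddit3, which encodes CHOP, measured 8.83, 8.49 and 8.84 with vehicle, 9.85, 9.79 and 10.04 at 5 h and 11.60, 11.61 and 11.62 at 12 h. The groups formed 3 separate levels. Its first step was 1.17 and its second 1.71 ± 0.08 (3.28-fold, adjusted p = 2.3e-11). Nupr1, a small stress-induced chromatin protein, measured 8.84, 8.70 and 9.06 at 5 h and 11.24, 11.17 and 11.19 at 12 h, a rise of 2.33 ± 0.09. Ppp1r15a, which encodes GADD34 and restores translation by dephosphorylating eIF2α, rose by 0.75 and then by 2.21 ± 0.07.

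Trib3, a pseudokinase that restrains ATF4 and AKT, read 7.95, 7.95 and 7.70 with vehicle, 9.06, 8.86 and 9.17 at 5 h and 10.77, 10.76 and 10.80 at 12 h. Slc7a11, the cystine importer, rose by 1.22 and then by 1.51 ± 0.07. Chac1, a glutathione-degrading enzyme, was the exception in its order, since its first step of 1.55 exceeded its second of 0.76. Herpud1, an adaptor of ER-associated degradation, rose by 0.80 and 1.49 ± 0.06, and Dnajb9, a BiP co-chaperone known as an XBP1 target, by 0.42 and 1.82 ± 0.08.

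Of 29 PERK, ATF4 and CHOP targets, 23 rose in the second step and 0 fell (median 0.83). In the first step 15 of them had already been higher. Of 24 genes of amino acid synthesis and transport, 21 rose and 0 fell (median 0.50), led by the mitochondrial folate enzyme Aldh1l2 with 1.85, and cystathionine gamma-lyase, Cth, rose by 1.36 ± 0.06. Of 19 cytosolic aminoacyl-tRNA synthetases, 12 rose in the second step and 0 fell (median 0.43), and the calls at 5 h held 0 of them, with a median difference of 0.03. Wars rose by 0.90 ± 0.06 and Lars by 0.83 ± 0.07.

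The sensors and factors of the UPR fell into both patterns, and 14 of 18 rose between 5 and 12 h with 0 lower (median 0.74). Atf6 measured 10.46, 10.38 and 10.55 at 5 h and 11.74, 11.74 and 11.84 at 12 h, a late rise of 1.31 ± 0.06. Xbp1 rose late by 0.86 ± 0.06, and Eif2ak3, the gene for PERK, by 0.84. Atf4 rose in both steps, by 0.36 and 0.70 ± 0.06, and Atf5 by 0.37 and 1.20 ± 0.07. Ern1, the gene for IRE1, took most of its change in the first step, 0.63, and rose by 0.23 in the second.

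The composite element bound by C/EBP-ATF dimers was searched as TGATGNAA on both strands. It occurred in 11 of 26 continued rises with a window (42.3%), against 565 of 15614 genes (3.62%). The same letters occurred in 23 of 507 late rises (4.54%). Most genes with the letters were not called higher. Of the 565, 36 were higher at 5 h (6.37%, against 4.14% of all genes with a window). Between 5 and 12 h, 89 of them rose (15.8%, against 12.0%), with a median of -0.01. Segments of 5 continued rises are shown, with the match in capitals. In Herpud1 the second run of capitals is ERSE-II, a variant of the stress element. It is held by 9 genes, of which 6 rose (66.7%), against 12.0% of all genes with a window.

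Herpud1 (chr8:94386309-94386395, plus strand): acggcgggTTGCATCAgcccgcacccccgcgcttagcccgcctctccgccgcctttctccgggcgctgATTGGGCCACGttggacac
Nupr1 (chr7:126625561-126625592, minus strand): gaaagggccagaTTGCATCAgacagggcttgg
Slc7a11 (chr3:50443641-50443691, minus strand): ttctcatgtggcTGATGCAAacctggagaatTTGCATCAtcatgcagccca
Atf3 (chr1:191183424-191183455, minus strand): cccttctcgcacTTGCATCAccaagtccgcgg
Chac1 (chr2:119351037-119351068, plus strand): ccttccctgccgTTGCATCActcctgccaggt

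Slc7a11 holds 2 copies in opposite orientation, and the others hold 1. Atf3, a stress-induced repressor and activator, read 9.52, 9.44 and 9.59 at 5 h and 10.59, 10.61 and 10.49 at 12 h, a rise of 1.04 ± 0.08. Of 53 transient rises with a window, 1 held the composite (1.89%).

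Transient rises were led by other gene families. Ccn2, a secreted matricellular protein known as a YAP-TEAD and TGF-beta target, measured 9.76, 9.64 and 9.64 with vehicle, 10.90, 10.69 and 10.60 at 5 h and 9.31, 9.36 and 9.32 at 12 h. The 5 h arrays stood alone on top, and the 12 h arrays lay below vehicle. It fell by 1.40 ± 0.09 from 5 to 12 h (adjusted p = 1e-09) and ended 0.35 below vehicle.

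Id1 and Id3 encode helix-loop-helix proteins that block the DNA binding of their partners and answer to BMP signals. Id1 measured 8.43, 8.44 and 8.51 with vehicle, 10.26, 10.03 and 10.01 at 5 h and 8.89, 8.76 and 8.74 at 12 h. It thus rose by 1.64 and fell by 1.30 ± 0.08 (adjusted p = 2.4e-10), leaving it 0.34 above vehicle. Id3 went from 8.47, 8.33 and 8.58 to 10.21, 10.18 and 10.26 and back to 9.43, 9.30 and 9.24. Its second step was -0.89 ± 0.08, and it remained 0.86 above vehicle.

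Feedback genes of the same pathway moved alike. Smad6, an inhibitory SMAD, read 8.96, 8.83 and 8.92 at 5 h and 7.92, 7.93 and 8.00 at 12 h, and Pmepa1, a membrane inhibitor of SMAD signals, rose by 1.08 and fell by 0.82. Atoh8 rose by 1.00 and fell by 0.74, and Smad9 rose by 0.94 and fell by 0.87. Of 28 ID and BMP/TGF-beta feedback genes, 12 were higher at 5 h, 12 fell between 5 and 12 h and 2 rose (median -0.16), and 8 were transient rises. Tgif1, a corepressor of SMADs, went the other way with a rise of 0.99 ± 0.05. The BMP response core TGGCGCC occurred in 11 of 53 transient rises (20.8%) and in 6.41% of all genes. Its share was 14.3% in the ID and BMP/TGF-beta list itself. It was also 22.7% in the immediate early list, 20.0% in the ER chaperone list and 17.1% in the translocon and vesicle coat list.

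Some further transient rises were growth-factor feedback and immediate early genes, though few members of those lists were in this class. Dusp4, a phosphatase of nuclear ERK, measured 9.49, 9.43 and 9.56 with vehicle, 10.25, 10.06 and 10.10 at 5 h and 9.15, 9.17 and 9.02 at 12 h. Only the 5 h arrays exceeded vehicle, and its second step was -1.02 ± 0.08. Spry4, an inhibitor of receptor tyrosine kinase signals, rose by 0.53 and fell by 0.94 ± 0.12. Fos rose by 0.42 and fell by 0.70 ± 0.11, and Maff by 0.75 and 0.78 ± 0.10, from and to means under the receptor limit of 6.07. Bhlhe40, a clock-linked repressor, fell by 1.11 ± 0.10 after its first rise of 0.60. Hes1, a Notch-regulated repressor, rose by 0.68 and fell by 0.54 ± 0.06.

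Of 30 immediate early factors, 10 were higher at 5 h, and 6 rose and 9 fell afterwards (median -0.08). In this list 2 were transient rises. Of 26 MAPK feedback and ETS genes, 16 fell and 2 rose in the second step (median -0.38). At 5 h, 5 of the 26 had been higher and 2 lower, and the list held 2 transient rises and 7 late falls. The SRF and YAP-TEAD targets had 11 of 33 lower and 0 higher (median -0.10). Of these 33, 10 had been higher at 5 h and 2 were transient rises. Thbs1, which encodes the matrix protein thrombospondin, rose by 0.42 and fell by 1.20 ± 0.07, and Vcl, the adhesion protein vinculin, fell by 0.77 ± 0.06.

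A zinc importer and a zinc exporter moved early and in opposite directions. Slc39a10, a zinc importer of the cell surface, measured 10.93, 10.83 and 10.97 with vehicle, 8.99, 8.85 and 8.95 at 5 h and 9.57, 9.73 and 9.65 at 12 h. It fell by 1.98, then rose by 0.72 ± 0.08, and was still far below vehicle on every array. The exporter Slc30a1 mirrored it with 7.40, 7.37 and 7.38, then 8.68, 8.72 and 8.82, then 7.88, 8.24 and 8.25. Both returned less than halfway and so lie outside the transient classes. Metallothionein Mt1 rose by 0.41 and fell by 0.58 ± 0.05, a transient rise. The core of the metal response element, TGCACNC or TGCGCNC, occurred in 31 of 53 transient rises (58.5%) and in 34.1% of all genes. Its share was also 46.2% in late falls, 44.4% in held rises and 42.9% in transient falls, and 63.3% in the hypoxia list and 56.8% in the G1/S list. In the second step 8 of 27 zinc genes rose and 5 fell (median -0.06), among them the ER and Golgi transporter Slc39a7 with a late rise of 0.85 ± 0.06.

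Values at the limit of the transient class were close to each other: Sphk1 and Gata2 lay just inside with first steps of 0.401 and 0.403, and Zfp595 and Nuak1 just outside with 0.399 and 0.398.

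**Figure D3:**
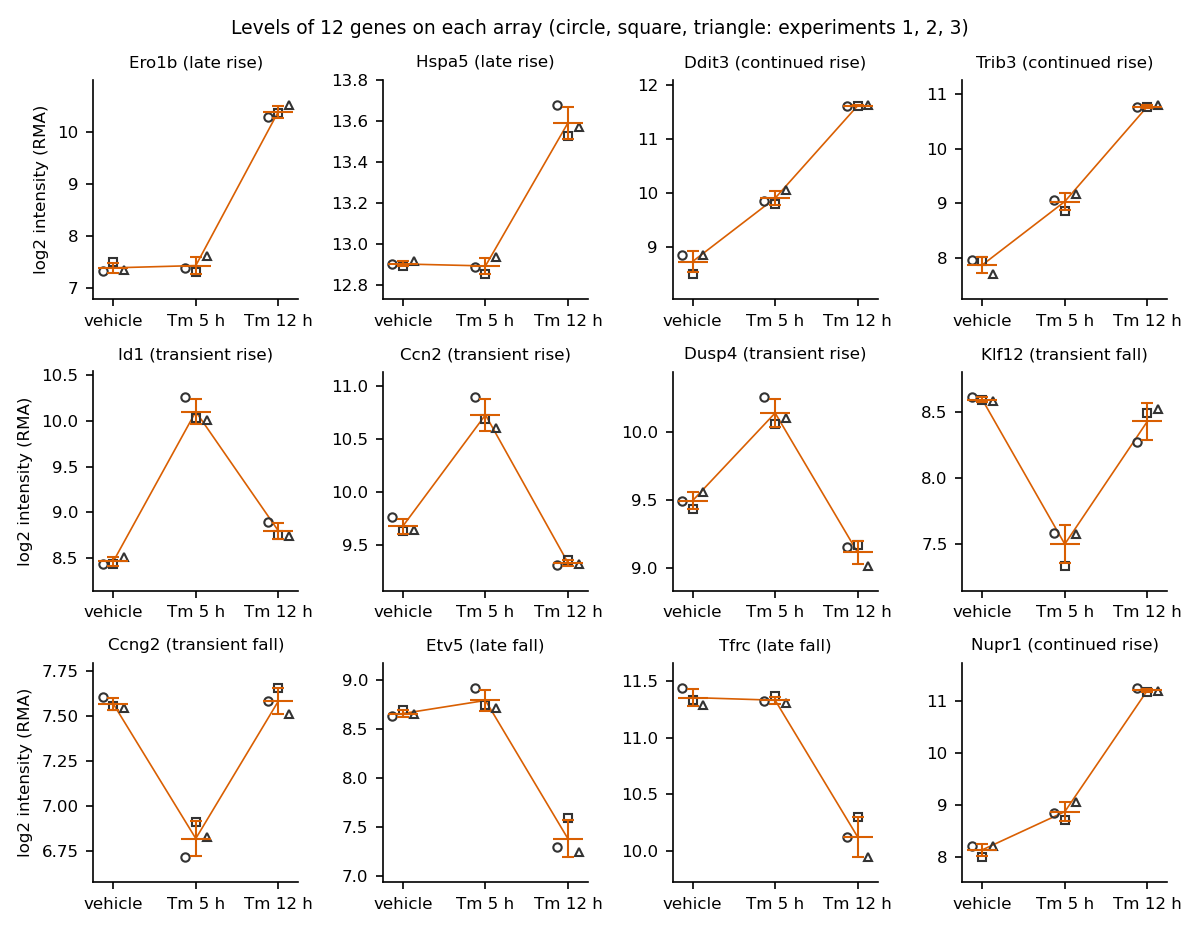
Log2 intensity on each array for 12 genes with vehicle, 5 h and 12 h of tunicamycin. Symbols are the 3 experiments, bars the mean and SD, and each panel has its own y axis: Ero1b and Hspa5 stay at the vehicle level until 5 h, Id1, Ccn2 and Dusp4 peak there, and Klf12 and Ccng2 are lowest there.

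Transient falls were fewer. Klf12, a transcriptional repressor, measured 8.61, 8.59 and 8.58 with vehicle, 7.58, 7.33 and 7.57 at 5 h and 8.27, 8.49 and 8.52 at 12 h. It fell by 1.10 and rose by 0.93 ± 0.11. Ccng2, an atypical cyclin of arrested cells, read 7.61, 7.56 and 7.54, then 6.72, 6.91 and 6.83, then 7.58, 7.66 and 7.51. Vehicle and 12 h overlapped, and all 5 h arrays lay below. Hbp1, a repressor of cell cycle genes, overshot: it fell by 0.51, rose by 1.11 ± 0.05 and ended 0.60 above vehicle.

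Klf12, Ccng2 and Klhl24 are on a list of 36 FOXO-linked growth-restraint genes, of which 15 were lower at 5 h, 18 rose and 3 fell in the second step (median 0.14), and 5 were transient falls. Btg1, an antiproliferative cofactor, was a late rise of 1.20 ± 0.07. Nr1d2, a repressor of the clock, fell by 0.49 and rose by 0.51.

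The largest late falls were those of Etv5, Prokr1, Kank4, Tfrc, Epb41l3, Hsd17b7 and B4galt5, genes of varied function. Etv5, an ETS factor downstream of ERK, measured 8.63, 8.69 and 8.65 with vehicle, 8.91, 8.74 and 8.71 at 5 h and 7.29, 7.59 and 7.25 at 12 h. All 12 h arrays were below all others, and the fall was 1.41 ± 0.09 (adjusted p = 4.8e-10). Tfrc, the transferrin receptor, read 11.32, 11.37 and 11.31 at 5 h and 10.12, 10.30 and 9.94 at 12 h, a step of -1.21 ± 0.08. Steap3, an endosomal iron reductase, fell by 0.64 ± 0.05, while its relative Steap1 rose by 1.58 ± 0.11. Prokr1, a prokineticin receptor, and Kank4, an adaptor of the KANK family, each fell by 1.27, Epb41l3, a membrane skeleton protein, by 1.20 and B4galt5, a galactosyltransferase, by 1.13. The largest fall of all was that of Rapgef3, a cAMP-activated exchange factor, from 8.95, 8.83 and 8.85 to 7.18, 7.49 and 7.21. With 0.26 above vehicle at 5 h it lies outside the late class.

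Cell cycle genes were also lower at 12 h. In a bulk culture, fewer cells of a kind and less RNA per cell cannot be told apart. The G1/S and replication list had 37 of 44 members lower and 0 higher (median -0.41), and 10 had been lower at 5 h. Ccnd1, the cyclin of G1, measured 11.96, 11.95 and 11.92 at 5 h and 11.06, 11.21 and 11.06 at 12 h, a late fall of 0.83 ± 0.06. Orc1, of the origin recognition complex, fell by 0.86 ± 0.09, and Uhrf1, which links replication to DNA methylation, by 0.75 ± 0.08. Of 45 genes of G2/M and mitosis, 26 fell and 0 rose, with a smaller median of -0.17. Of these 45, 20 were lower at 5 h than with vehicle. With array medians over the genes tested set equal, 17 fell and 1 rose in the second step. Ccnf, a cyclin of G2, fell by 0.53 ± 0.07 and Bub1b by 0.40 ± 0.05.

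Lipid synthesis fell less evenly. Of 34 cholesterol and fatty acid genes, 23 fell and 2 rose (median -0.22). Hsd17b7, an enzyme of cholesterol synthesis, read 10.12, 10.20 and 10.20 at 5 h and 8.81, 9.25 and 8.96 at 12 h, a step of -1.17 ± 0.09. Elovl6, a fatty acid elongase, fell by 0.89 ± 0.06. Mvd went against the list with a rise of 0.83 ± 0.07. Of 23 cytosolic heat shock chaperones, 11 fell and 0 rose (median -0.14), and 6 fell with array medians over the genes tested set equal. Hsph1 fell by 0.71 ± 0.07, and 0 of the list were called higher at 5 h.

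Pigment genes were mixed: 11 of 28 melanocyte genes fell and 3 rose (median -0.06). Mc1r, the melanocortin receptor, measured 11.08, 11.05 and 11.20 at 5 h and 9.99, 10.14 and 10.00 at 12 h, a fall of 1.07 ± 0.07. Sox10, a factor of the melanocyte lineage, fell by 0.53 ± 0.05, and the receptor gene Met by 0.87 ± 0.08. Dct, Tyrp1 and Pmel, which make and hold pigment, differed by 0.02, 0.05 and 0.03 and were not called. Tyr, the rate-limiting enzyme of melanin synthesis, rose by 0.34, while Mlana, a melanosome protein, fell by 0.21 and Mitf, the lineage factor, by 0.22.

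Genes of death and survival gave no common direction, with 5 of 31 higher and 7 lower (median -0.07). Casp4, an inflammatory caspase, stood out with 6.88, 6.75 and 6.76 at 5 h and 9.21, 9.07 and 9.28 at 12 h, a late rise of 2.39 ± 0.10 (5.25-fold). Cflar, an inhibitor of caspase-8, rose by 0.63 ± 0.07. Bid fell by 0.49 ± 0.06, and Bcl2l11, a BH3-only protein, had fallen by 0.51 in the first step and then differed by -0.17, which was not called. Of 41 autophagy and lysosome genes 19 rose and 5 fell (median 0.13), led by Atg13 with 1.20 ± 0.06 and the receptor Nbr1 with 0.80 ± 0.05.

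**Figure D4:**
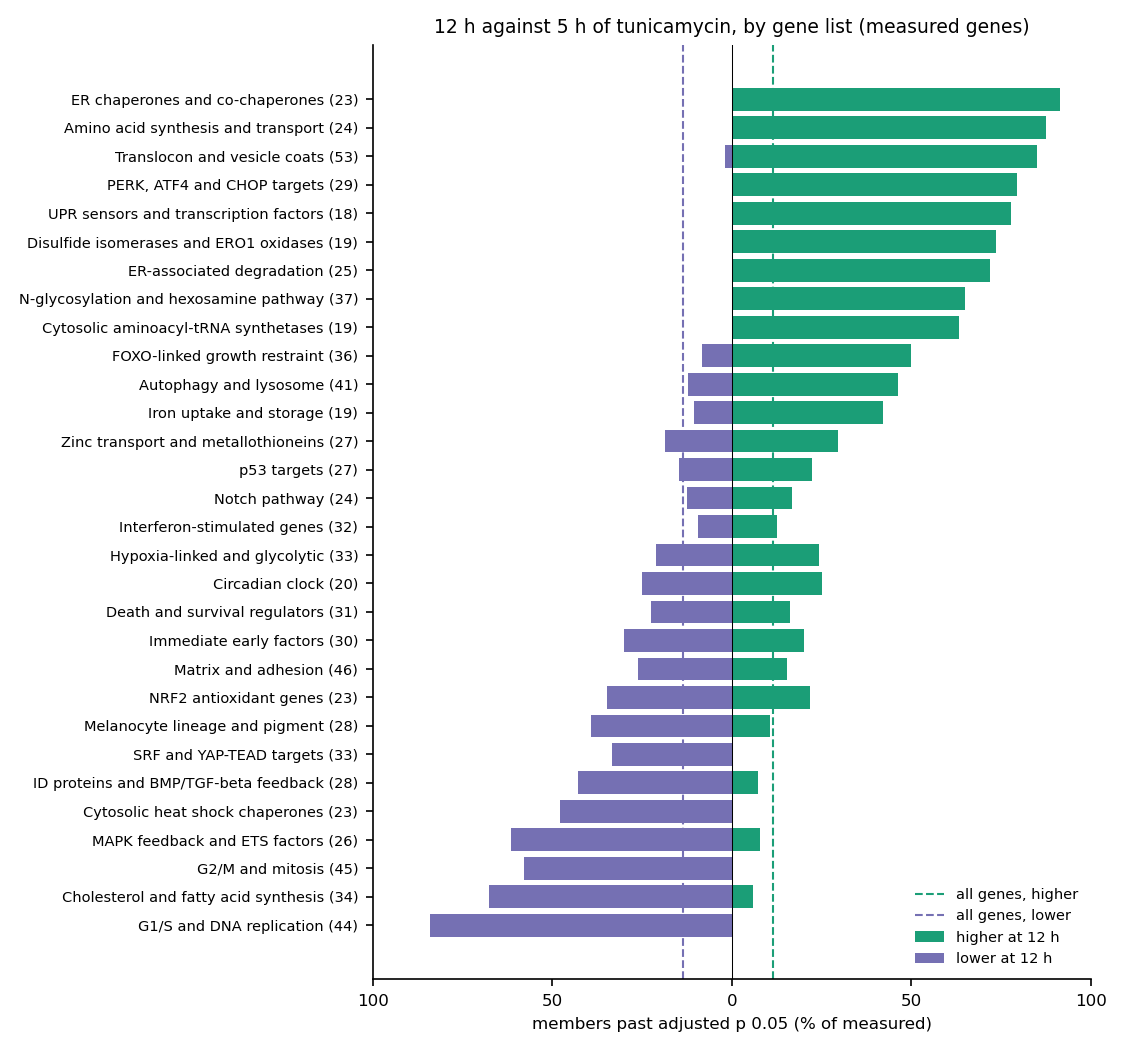
For each of 30 gene lists (number measured in brackets), bars give the percentage of members higher (right) or lower (left) at 12 h than at 5 h at adjusted p under 0.05. Dashed lines mark the shares over all genes, 11.4% and 13.6%; ER chaperones lie at the top with 21 of 23 higher and G1/S genes at the bottom with 37 of 44 lower.

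Single members moved away from their lists. Hey2, a Notch-regulated repressor, measured 5.78, 5.69 and 5.70 at 5 h and 8.09, 8.14 and 8.39 at 12 h, with no overlap. The 5 h mean of 5.73 lay under the receptor limit of 6.07, so the measured difference of 2.48 has no exact size; against that limit the rise was at least 4.42-fold. Of the 24 Notch pathway genes including Hey2, 4 rose and 3 fell (median -0.02). Isg20, an exonuclease, rose by 2.23 ± 0.08 on a list of 32 interferon-stimulated genes of which 4 rose and 3 fell (median -0.01). Hmox1, haem oxygenase, rose by 1.10 ± 0.07, while 8 of 23 NRF2 antioxidant genes fell and 5 rose (median -0.09). Gclm, of glutathione synthesis, was a transient rise of 0.41 and fell by 0.43 ± 0.05.

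Of the remaining lists, 12 of 46 matrix and adhesion genes fell and 7 rose (median -0.11), among them the laminin Lama4 with a rise of 0.71 ± 0.05 and the inhibitor Timp2 with a fall of 0.61 ± 0.05. Iron genes had 8 of 19 higher and 2 lower (median 0.05). Hypoxia-linked and glycolytic genes had 8 of 33 higher and 7 lower (median -0.01). Vegfa rose late by 0.83 ± 0.07 and Egln3, an oxygen sensor, fell by 0.92 ± 0.12. The p53 targets had 6 of 27 higher and 4 lower (median 0.02), with Gadd45a up by 1.69 ± 0.09. Clock genes had 5 of 20 in each direction (median -0.06), and Arntl rose by 0.70 ± 0.06. The near-zero medians of the hypoxia, interferon, Notch and p53 lists changed sign with the scaling, to 0.03, 0.03 and 0.02 with medians over the genes tested set equal for the first 3 and to -0.01 with quantile normalization repeated for the p53 list. With medians over the genes tested set equal, the falls numbered 5 in the NRF2 list, 2 in the autophagy list and 2 in the p53 list, and with quantile normalization repeated, 4 in the iron list and 5 in the interferon list. With medians over all probe sets set equal, 2 Notch genes rose.

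Continued falls and held changes were small in number. Irgm1, an interferon-induced GTPase, measured 9.04, 8.83 and 9.03 with vehicle, 8.75, 8.26 and 8.54 at 5 h and 7.73, 7.76 and 7.26 at 12 h. Mov10, an RNA helicase, fell by 0.52 and then by 0.54 ± 0.06. Unc5b, a netrin receptor, held its level at 9.01, 9.04 and 9.05 at 5 h and 8.97, 8.95 and 8.99 at 12 h, after 7.98, 7.96 and 8.02 with vehicle. Pde9a, a cGMP phosphodiesterase, was lower by 0.85 at 5 h and differed by 0.11 afterwards.

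The doxycycline arrays measured both steps in other cultures, with LIP induced. Their levels were not used to sort the genes, but they entered the fit and share its estimate of the spread, so the calls behind the classes are not fully separate from them. Of the 81 transient rises, 75 were higher at 5 h (6.54% of all genes were) and 76 were lower at 12 h than at 5 h (15.4% of all genes). Of the 34 transient falls, 26 were lower at 5 h (5.56%) and 27 rose afterwards (10.9%). Of the 624 late rises, 584 rose between 5 and 12 h and 2 fell. Of the 465 late falls, 454 fell there and the calls of rises held 0. Of the 30 continued rises, 29 rose in the second step.

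Fewer genes met the whole class definition in both arms: 62 of the 81 transient rises, 15 of the 34 transient falls, 382 of the 624 late rises and 223 of the 465 late falls. Over all 19938 genes, 1398 met the definition of any class in the doxycycline arm. Id1 with doxycycline measured 8.63, 8.48 and 8.73 at 0 h, 10.31, 10.19 and 10.09 at 5 h and 9.01, 9.10 and 8.99 at 12 h. Ero1b with doxycycline rose by 3.34. Itga5, an integrin subunit, was a transient rise that went the other way there: it rose by 0.54 and fell by 0.60 without doxycycline, and rose by 0.87 in the second step with it, a difference of 1.47 ± 0.15 (adjusted p = 2.617e-05 in limma).

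**Figure D5:**
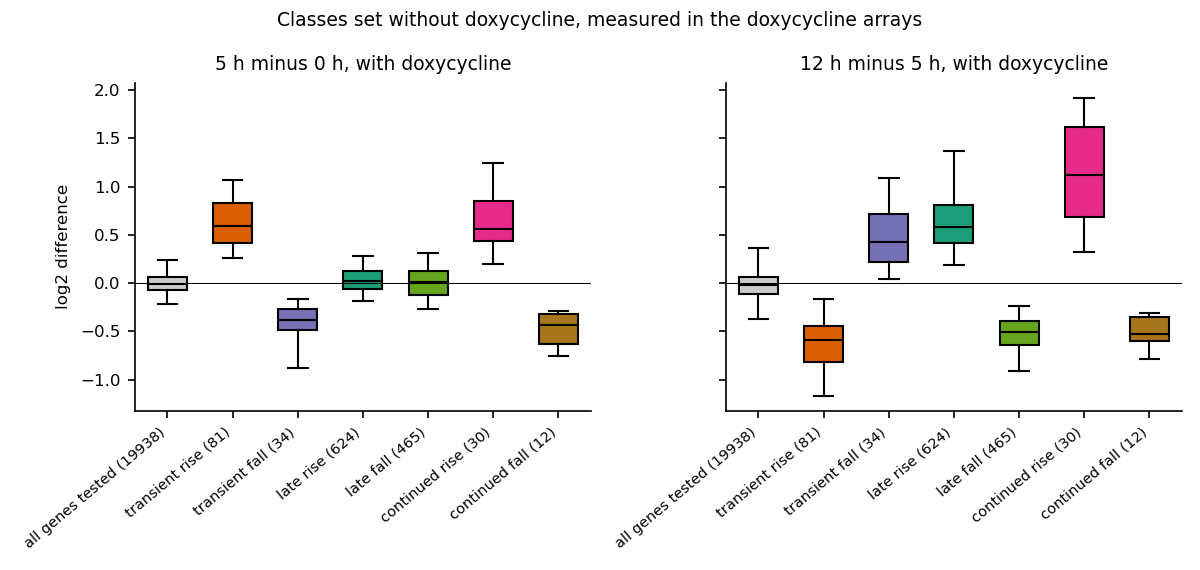
Boxes show, for all genes and for 6 classes set without doxycycline, the log2 differences of both steps in the doxycycline arrays (line: median, box: quartiles, whiskers: 5th to 95th percentile over genes). Medians of the transient rises are 0.60 and -0.58, and those of the late rises 0.02 and 0.58.

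The difference between the arms was tested for every gene. The second step differed between the arms for 140 genes (0.702%), higher with doxycycline in 42 (0.211%) and lower in 98 (0.492%). Among those with the lower step were 40 late rises and 4 continued rises, and among those with the higher step 8 late rises. These classes were chosen by their step without doxycycline, which the difference subtracts, so the counts are a description only. Late falls, chosen by the opposite sign of that step, had 4 higher and 1 lower. Dthd1, a death-domain gene, measured 5.14, 5.03 and 4.93 at 5 h and 7.24, 7.34 and 7.26 at 12 h without doxycycline. With doxycycline it read 4.99, 4.85 and 5.10, then 5.63, 5.26 and 5.38. The 12 h arrays of the arms did not overlap. The measured steps differed by -1.80 (adjusted p = 9.21e-08 in limma), but the means at 5 h in both arms and at 12 h with doxycycline lay under the receptor limit of 6.07, so this difference has no exact size. Against that limit, the 12 h level without doxycycline was at least 2.32-fold higher than with it.

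Hmox1 changed direction between the arms: it rose by 1.10 without doxycycline and fell by 0.33 with it, with 9.19, 9.21 and 9.09 at 5 h and 8.68, 9.02 and 8.79 at 12 h. The difference was -1.43 ± 0.10 (adjusted p = 3.04e-07 in limma). Cebpb, which encodes C/EBPβ and thus LIP, measured 9.47, 9.60 and 9.48 at 5 h and 10.38, 10.23 and 10.28 at 12 h without doxycycline, a rise of 0.78. With doxycycline it read 11.02, 11.27 and 11.24 at 0 h, 11.31, 11.36 and 11.32 at 5 h and 11.51, 11.47 and 11.58 at 12 h. Its step from 5 to 12 h with doxycycline was 0.19, which was not called. The probe set cannot tell the induced from the endogenous transcript. Pdia6 was among the genes with a larger step under doxycycline, 1.36 against 1.02.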

How the data were processed

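Total RNA of 18 cultures was labelled and hybridised to Affymetrix whole-transcript arrays, 1 array per culture. The authors deposited log2 intensities, made with RMA and Partek per the submitters' processing notes; versions, settings and the annotation build are not given in the sources used here. RMA sets arrays to a common distribution, so a shift of all genes together is not visible.

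Of 35557 probe sets, 21789 had 1 symbol, 1621 several and 12147 none in the platform annotation. The brightest probe set per symbol gave 19938 genes. Group means over all 18 arrays were fitted with limma 3.58.1 in R 4.3.3 (residual df 12), with Benjamini-Hochberg adjustment over all genes and a threshold of 0.05. The procedure was tested on simulated data. Figures used Python 3.11.15 and matplotlib 3.10.9. Arrays have no read depth, and their number, 3 per group, limits the precision.

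Named genes were the 12 largest rises and 12 largest falls with 1 direction in each of the 3 experiments, up to 8 per temporal class, up to 4 per list and a short set of UPR, ID and zinc genes; predicted and clone-named genes, small RNAs, chemosensory receptors and histones were left out of the rankings. Other genes named were members of the lists, carriers of a printed motif or at a class limit, and were chosen after their values were seen. The members, the 30 lists and the class limits were chosen with earlier results of these data known. Promoters came from RefSeq (GRCm38.p6).

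The main fit did not use the experiment numbers to pair arrays. Same-number pairs correlated between -0.50 and 0.50 in their deviations from the group means, and 14 of 45 exceeded 0.1. These correlations cannot decide whether arrays of 1 experiment belong together. Alternatives covered normalization, filters, probe set choice, array weights, the receptor component, the replicate block, each array and each experiment left out, and the class limits.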

Additional observations from a re-analysis of the deposited data

Results flagged for a closer look

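For 19 of the genes named here the step from 5 to 12 h differed between the arms with and without doxycycline by limma's interaction test. Each value is the step with doxycycline minus the step without. Over all genes tested, 140 of 19938 differed (0.702%). Many named genes were chosen by their step without doxycycline, which the difference subtracts, and some after their values were seen. The count and its direction are therefore a description only. The step was lower with doxycycline for Dthd1 (-1.80), Hmox1 (-1.43), Casp4 (-1.10), 1810010H24Rik (-1.09), Cdsn (-0.97), Isg20 (-0.86), Gadd45a (-0.65), Aldh1l2 (-0.60), Cebpb (-0.59), Mlph (-0.56), Itgb5 (-0.48), Unc5b (-0.44), Pmel (-0.35) and Tfe3 (-0.34). For Dthd1 the means at 5 h in both arms and at 12 h with doxycycline lay under the receptor limit of 6.07, so its value has no exact size. Hmox1 rose without doxycycline and fell with it. It was higher with doxycycline for Itga5 (1.47), which fell without it and rose with it, for B3galt5 (0.62) and Etv5 (0.59), which fell less, and for Pdia5 (0.45) and Pdia6 (0.34), which rose more. Casp4 rose by 2.39 without doxycycline and by 1.30 with it, and Isg20 by 2.23 and 1.37. Mlph, which links melanosomes to the motor myosin, fell by 0.64 without doxycycline and by 1.20 with it. The adjusted p-values ran from 9.21e-08 for Dthd1 to 0.03817 for Tfe3 in limma. The cause of these differences was not tested.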

How the results depend on the processing

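Of 161 named genes, 153 kept their call between 5 and 12 h under every alternative and 0 reversed; Hoxb9, Hspb1, Arhgap6, Tas2r108, Mdga2, Dnaja1, Dnajb1 and Map2k6 crossed the threshold in at least 1. With a replicate block, 2321 genes rose and 2784 fell between 5 and 12 h. Fitting only the groups compared gave 494 higher and 560 lower genes at 5 h against vehicle, and 18 higher and 48 lower steps with doxycycline. The count of higher steps with doxycycline was 72 with quantile normalization repeated, 74 with a variance trend and robust fit, 111 with array weights and 91 with the receptor component as covariate. Array weights gave 2247 higher and 2134 lower genes at 5 h. Without 5 h array 2 and 12 h array 3, the highest on the receptor component, 604 genes were lower at 5 h and 55 steps were lower with doxycycline. Array medians over all probe sets gave 19 continued falls. Array medians over the genes tested, an alternative chosen after seeing the data, gave 495 higher and 1578 lower genes at 5 h, 53 transient rises, 59 transient falls, 19 continued falls, 25 held rises and 113 held falls. A minimum step of 0.3 gave 151 transient rises, 95 transient falls, 941 late rises, 854 late falls, 58 continued rises, 61 continued falls, 125 held rises and 177 held falls, and a minimum of 0.6 gave 26, 5, 308, 128, 16, 0, 6 and 9 in the same order. The ERSE share of late rises was 8.75% at a step of at least 1. Leaving out an array or an experiment gave 1668 to 2302 genes higher and 1615 to 2778 lower between 5 and 12 h, the lower count moving by over 1.5 times without experiment 1 (1632) or 3 (1615). It gave 223 to 846 higher and 196 to 1044 lower at 5 h, 1971 to 3254 lower at 12 h against vehicle, 1438 to 2259 higher and 1834 to 3193 lower between 5 and 12 h with doxycycline, 565 to 1432 higher and 376 to 1184 lower at 5 h with doxycycline, and 9 to 47 higher and 19 to 152 lower steps with doxycycline. It gave 7 to 19 continued falls, 26 to 55 held rises and 44 to 89 held falls. The causes were not tested.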

Other observations

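Motifs of other lists were read in the same promoter windows. The cell cycle element TTTGAA occurred in 26 of 38 genes of the G2/M list with a window (68.4%) and in 17.3% of all genes. The composite TGATGNAA occurred in 4 of 21 transient falls (19.0%) against 3.62% of all genes. The sterol element TCACNCCAC was found in 0 of 377 late falls and in 1.4% of all genes. In the cholesterol and fatty acid list it occurred in 1 of 27 genes with a window (3.7%). Probe sets with no symbol or several symbols, 13768 in number, held 884 higher and 285 lower calls between 5 and 12 h. The 19938 genes tested held 2264 higher (11.4%) and 2719 lower (13.6%). The probe sets without a single symbol were fitted and adjusted on their own, without choosing the brightest. Their counts are therefore not on the same footing as those of the genes. Rises outnumbered falls among these probe sets, and falls outnumbered rises among the genes.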
